A study of Mus musculus with 20 samples.

Results

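The kidney was compared between male mice that had received JQ1 for 3 weeks and males that had received vehicle on the same schedule. The libraries were those labelled as kidney from the end of dosing, 3 from JQ1 and 3 from vehicle, which makes 6 of the 20 libraries of the series. The mice were of the inbred strain DBA/2J and 10 weeks old when tissue was taken. JQ1 was injected intraperitoneally every day at 50 mg/kg. The rest of the series holds the liver of the same cohorts and both organs 6 weeks after the last dose, and the single vehicle kidney of that later time was left out here. In the study, both organs served to ask how widely a drug aimed at BRDT, the BET protein of the testis, alters tissues outside it. Groups follow the labels, although a supplementary legend swaps the vehicle numbers of both times.

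BET proteins read acetylated histones at promoters and enhancers and recruit the machinery that releases paused RNA polymerase, and JQ1 occupies the pockets with which they do so. The kidney consists in large part of proximal tubule cells. These cells take back sugars, amino acids and phosphate from the filtrate, make glucose, break down amino acids, secrete drugs and conjugate steroids and foreign compounds. In rodents a large share of their metabolic genes differs between males and females under the control of androgens.

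Sequencing depth was 13952510 to 26895318 reads per library, mitochondrial genes took 24.5% to 26.7% of the reads, and markers of the proximal tubule (Lrp2, Slc34a1, Kap), the thick limb (Umod, Slc12a1), the distal tubule (Slc12a3), the collecting duct (Aqp2) and the podocyte (Nphs1) were present in each of the 6 libraries. Values are CPM, the reads of a gene relative to the total of its library, scaled with TMM factors. The library labelled JQ1 replicate 1 stood apart. Its score on the first principal component (34.4% of the variance) was -59.7 against -11.1 to 26.7 in the other five. Genes of cells that surround the tubules were high in it. The summed CPM of 14 adipocyte genes was 882, 170.2 and 349 in JQ1 replicates 1 to 3 and 337, 259 and 544 in vehicle, that of the macrophage and dendritic cell genes was 672, 145 and 211 against 190.1, 225 and 163, and that of the fibroblast and mural cell genes was 1769, 443 and 615 against 489.7, 548 and 429.8. The defining adipocyte markers Adipoq, Plin1 and Cfd were each at their highest in that library. JQ1 replicate 3 was high in hepatocyte genes, with a summed CPM of 70.5 against 12.5 to 21.8 in the other five libraries and Alb at 28.3 against 3.93 to 5.98 CPM. The adrenal markers Cyp11b1 and Th were at 0 in each library, and the pancreas and muscle markers Prss2, Cpa1, Ckm and Acta1 did not exceed 0.684 CPM, while the adrenal marker Star was at 0.764 to 1.92 CPM and the pancreas marker Cela1 at 21.01 to 39.7 CPM in the 6 libraries. Red cell genes summed to 9533 to 13162 CPM in the JQ1 libraries and 4745 to 8144 in vehicle, without overlap. The part of these cells in the differences below was not tested beyond leaving out each library in turn. In bulk tissue, fewer cells of a type and less RNA per cell cannot be told apart.

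**Figure D1:**
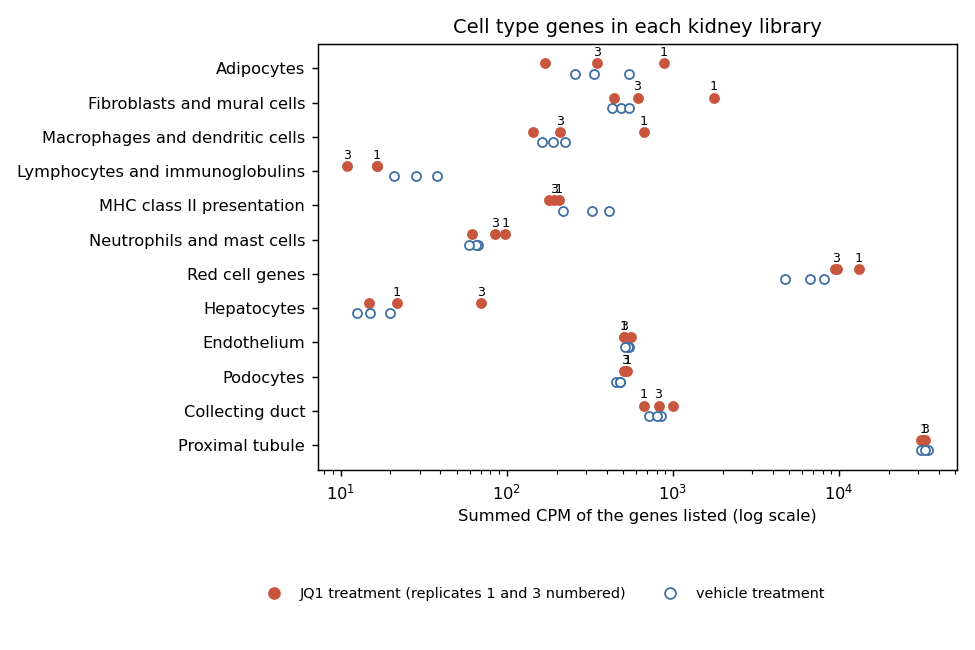
Each point is the summed CPM (log scale) of a list of cell type genes in 1 kidney library, filled for the 3 JQ1 and open for the 3 vehicle libraries, with JQ1 replicates 1 and 3 numbered. JQ1 replicate 1 lies far to the right in adipocyte, fibroblast and macrophage genes and JQ1 replicate 3 in hepatocyte genes, while the proximal tubule sums of both groups overlap.

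JQ1 altered a minority of kidney genes, and more were lower than higher. Of 16973 genes tested, 623 (3.67%) passed an adjusted p below 0.05 in edgeR, 237 (1.4%) higher and 386 (2.27%) lower after JQ1. Falls were deeper than rises. The median log2 fold change was -0.74 among the genes that fell and 0.41 among those that rose, against 0.005 over all genes tested, and 139 falls but 21 rises exceeded 2-fold. Rises lay among abundant transcripts, with a median vehicle level of 81.8 CPM against 23.2 CPM for the genes that fell and 9.87 CPM for all genes tested. Among the 1403 genes at 100 CPM or more in vehicle, 7.48% rose and 4.92% fell, and among the 6532 genes between 1 and 10 CPM 0.352% rose and 1.53% fell. The 6 libraries of both groups did not overlap for any of the 623 genes, and this also held for 20.7% of all genes tested. Protein-coding genes made up 216 of the rises and 344 of the falls, and lncRNA genes 9 and 32.

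The count depended on single libraries. It was 536 without JQ1 replicate 1, of which 447 were among the 623. It was 743 without JQ1 replicate 2, 384 without JQ1 replicate 3, and 420, 397 and 398 without vehicle replicates 1, 2 and 3. Of the 623 genes, 257 passed in each of these 6 fits, 78 higher and 179 lower. Below, a gene said by name to have risen or fallen is one of these 257 unless the loss of its call is given beside it. That note gives how many of the 6 fits lost the call and the highest adjusted p among them, with the library left out. Counts and shares of genes that rose or fell, as in the gene lists, come from the fit with no library left out. They include genes that lost their call, and the share of all genes tested to set beside them is 3.67%. That share is not matched for abundance, which differs between the lists. Among genes at 100 CPM or more in vehicle 7.48% rose and 4.92% fell. Near-identical gene copies share reads, so that values of single Ugt2b, Cyp2, Serpina1, haemoglobin and histone genes are uncertain.

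**Figure D2:**
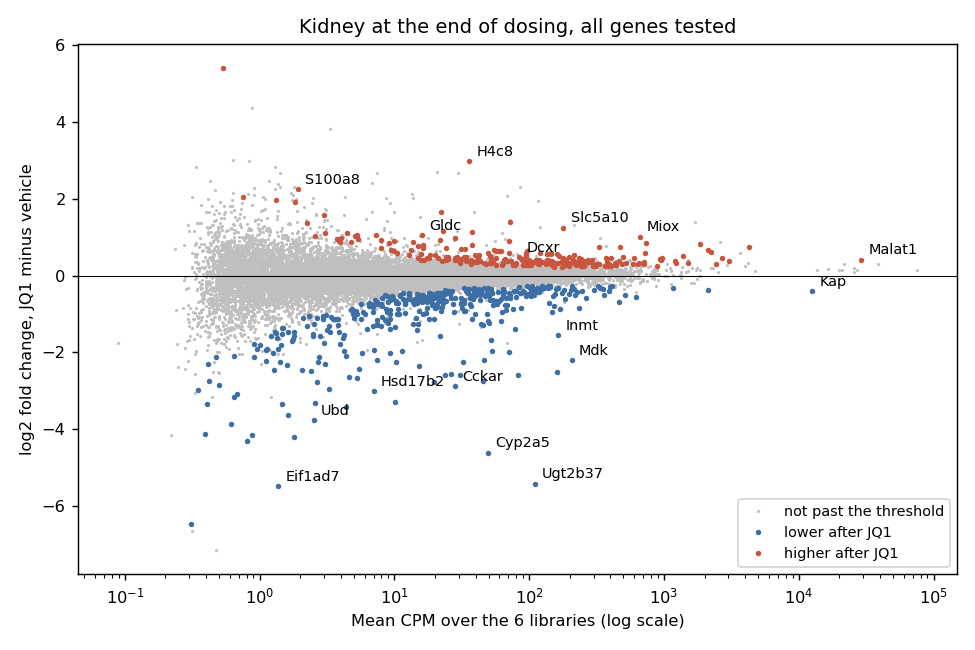
Each point is 1 of 16973 genes tested, with its mean CPM over the 6 libraries (log scale) and its log2 fold change (JQ1 minus vehicle), coloured where the adjusted p was below 0.05. The falls of Ugt2b37 and Cyp2a5 reach below -4.

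The deepest fall among abundant genes was in Ugt2b37, a glucuronosyltransferase that couples hydrophobic compounds to glucuronic acid for excretion. It was at 5.22, 3.73 and 6.46 CPM in the JQ1 libraries and 229, 162 and 255 CPM in vehicle, a log2 fold change of -5.42 ± 0.25 (adjusted p = 4.34e-05). The cytochrome P450 Cyp2a5, which oxidises coumarin and nicotine, was at 4.24, 3.88 and 3.70 CPM against 86.7, 74.3 and 126 CPM (-4.61 ± 0.26, adjusted p = 6.86e-05). Both groups were thus set far apart for these genes, with the JQ1 libraries close to each other. Hsd17b2, which oxidises oestradiol and testosterone to weaker steroids, was at 0.974, 2.54 and 0.822 CPM against 13.3, 10.3 and 14.2 CPM (-3.01 ± 0.30, adjusted p = 0.000156). The remaining large falls started from low levels. They were in Eif1ad7 (-5.49 ± 0.65), Ugt2b5 (-3.63 ± 0.56), the ubiquitin-like modifier Ubd (-3.77 ± 0.60), the steroid reductase Akr1c18 (-3.34 ± 0.48), Ifitm7 (-3.31 ± 0.51), Serpina1f (-3.29 ± 0.33), 9030619P08Rik (-2.95 ± 0.62, call lost in 4 of 6, up to 0.138 without JQ1 replicate 2) and the gene models Gm4208 (-4.20 ± 0.49) and Gm9973 (-3.42 ± 0.29).

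The falls with the lowest p were smaller, and choosing by p favours genes whose libraries scatter little. Inmt, which methylates tryptamine and related indoles, was at 82.4, 90.1 and 78.4 CPM after JQ1 and 253, 235 and 247 CPM in vehicle (-1.55 ± 0.07, adjusted p = 1.27e-09). Mdk encodes midkine, a heparin-binding growth factor, and was at 67.5, 73.2 and 81.5 CPM against 319, 366 and 332 CPM (-2.20 ± 0.10, adjusted p = 1.27e-09). Timd2, a cell surface receptor for ferritin, was at 8.76, 13.5 and 10.7 CPM against 51.6, 52.8 and 56.1 CPM (-2.26 ± 0.12, adjusted p = 2.14e-08). In each of these genes the highest JQ1 library lay well under the lowest vehicle library. Cckar, the cholecystokinin A receptor, went from 49.9 ± 7.09 to 6.70 ± 0.928 CPM (mean ± SD, n = 3 each), a log2 fold change of -2.88 ± 0.15. Aadat, an aminotransferase of kynurenine and aminoadipate, fell by 2.28-fold in its mean CPM (-1.19 ± 0.10), the secreted protein C1qtnf3 by 2.18-fold (-1.12 ± 0.09) and complement factor B (Cfb) by 1.85-fold (-0.88 ± 0.08). The gene models BC024386 (64.6 ± 4.55 to 32.4 ± 1.76 CPM) and Gm48281 (-2.25 ± 0.18) also fell.

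The largest rise was in a histone gene. The histone H4 gene H4c8 was at 56.2, 70.9 and 64.3 CPM after JQ1 and 10.9, 5.68 and 7.78 CPM in vehicle (2.98 ± 0.19, adjusted p = 9.08e-06), and H2ac19, a histone H2A gene, was at 24.4, 36.98 and 39.6 CPM against 13.3, 8.11 and 10.6 CPM (1.67 ± 0.20, adjusted p = 0.000516). Miox, which opens the ring of inositol in the first step of its breakdown and is made mainly in the proximal tubule, was at 859, 916 and 887 CPM against 421, 477 and 414 CPM (1.02 ± 0.08, adjusted p = 7.50e-07). The Miox libraries of a group differed by far less than the groups did. Slc5a10, a sodium-coupled carrier of mannose and fructose, was at 233, 254 and 269 CPM against 98.3, 93.3 and 126 CPM (1.25 ± 0.11, adjusted p = 6.86e-05). Aplp2, a relative of the amyloid precursor protein, rose by 0.74 ± 0.07 (adjusted p = 4.95e-06) and the gene model Gm20634 by 1.41 ± 0.13. Smaller rises at high level included glutathione peroxidase Gpx1 (0.66 ± 0.08) and the RNA-binding protein Ybx1 (0.62 ± 0.08), and Nt5dc2 rose by 0.92 ± 0.12. Among the 12 largest rises, the neutrophil proteins S100a8 (2.25 ± 0.35) and S100a9 (1.59 ± 0.32), the red cell gene Alas2 of haem synthesis (1.17 ± 0.20) and the small RNA gene model Gm25360 (1.38 ± 0.28) kept their call whichever library was left out. Tmem100 (1.91 ± 0.44, call lost in 4 of 6, up to 0.11 without JQ1 replicate 1), the mitochondrial folate enzyme Aldh1l2 (1.97 ± 0.50, call lost in 4 of 6, up to 0.144 without JQ1 replicate 1), ENSMUSG00000120257 (1.91 ± 0.477 to 4.17 ± 0.994 CPM, call lost in 5 of 6, up to 0.185 without vehicle replicate 2) and Tmem252 (1.13 ± 0.19, call lost in 1 of 6, up to 0.0524 without vehicle replicate 3) did not.

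**Figure D3:**
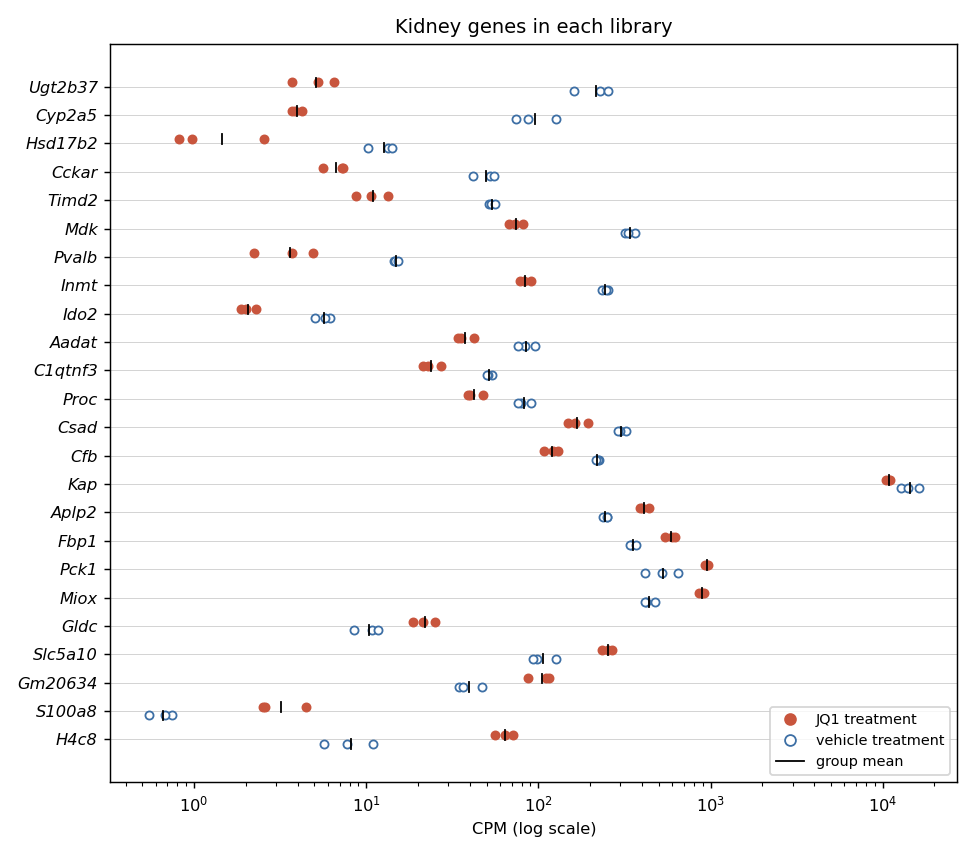
Points give the CPM (log scale) of selected genes in each library, filled for JQ1 and open for vehicle, and short vertical lines the group means. The genes run from Ugt2b37 at the top to H4c8 at the bottom and were taken from the 623 past the threshold. The groups do not overlap in any of those 623, nor in 20.7% of all genes tested.

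In reads, the largest losses and gains were in abundant transcripts, among them transcripts of the tubule. Kap, an androgen-driven protein of the proximal tubule, was at 11078, 10843 and 10516 CPM against 16247, 12718 and 14017 CPM (-0.41 ± 0.08). The inhibitor of matrix proteases Timp3 (-0.37 ± 0.07, call lost in 1 of 6, up to 0.0531 without vehicle replicate 3), the ketone-using enzyme Oxct1 (-0.32 ± 0.07, call lost in 3 of 6, up to 0.0972 without vehicle replicate 1) and the amino acid carrier Slc7a13 (-0.55 ± 0.08) followed. Cyp2a4 went from 274 ± 27.9 to 47.6 ± 21.7 CPM (-2.51 ± 0.31, call lost in 1 of 6, up to 0.0538 without JQ1 replicate 3). A large gain was in the nuclear RNA Malat1 (0.42 ± 0.09, call lost in 2 of 6, up to 0.0609 without vehicle replicate 3). The sodium pump subunit Atp1b1 (0.39 ± 0.06), the phosphate carrier Slc34a1 (0.47 ± 0.07) and Keg1 (0.50 ± 0.09) also gained.

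Promoters of the genes that fell held fewer CpG dinucleotides than those of other genes. RefSeq starts on GRCm38.p6 were matched by symbol for 288 of the 386 genes that fell, 179 of the 237 that rose and 11560 of the 16973 tested, with the first start listed taken and 250 bases before to 50 bases after it counted. The median was 7 CpG in genes that fell, 21 in genes that rose and 20 in the genes tested, and 40.3%, 14% and 14.4% of them held 5 or fewer. Median GC content was 55.5%, 61.3% and 60.3%. These medians are a description, since abundance also differed between the gene groups. The 5 windows printed are the 200 bases before the start of 3 genes that fell and 2 that rose among those described above, with TATAAA (the TATA box), GGGCGG (known as the GC box), the CCAAT box and the motif GTTAAT in capitals on either strand. Ugt2b37 (chr5:87254789-87254988, minus strand), Cyp2a5 (chr7:26835139-26835338, plus strand), Inmt (chr6:55174991-55175190, minus strand), Miox (chr15:89334273-89334472, plus strand) and H4c8 (chr13:23530844-23531043, plus strand) read, 5′ to 3′:
Ugt2b37: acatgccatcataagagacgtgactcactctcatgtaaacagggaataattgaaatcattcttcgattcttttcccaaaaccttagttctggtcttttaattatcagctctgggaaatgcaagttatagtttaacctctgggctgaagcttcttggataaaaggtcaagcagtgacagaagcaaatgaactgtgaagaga
Cyp2a5: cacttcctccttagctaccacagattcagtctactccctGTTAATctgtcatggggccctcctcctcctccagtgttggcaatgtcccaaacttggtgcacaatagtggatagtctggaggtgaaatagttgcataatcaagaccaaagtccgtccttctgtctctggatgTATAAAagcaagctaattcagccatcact
Inmt: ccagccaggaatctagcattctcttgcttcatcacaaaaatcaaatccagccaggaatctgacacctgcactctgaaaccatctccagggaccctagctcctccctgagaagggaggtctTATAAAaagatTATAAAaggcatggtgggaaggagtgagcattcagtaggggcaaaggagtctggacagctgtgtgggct
Miox: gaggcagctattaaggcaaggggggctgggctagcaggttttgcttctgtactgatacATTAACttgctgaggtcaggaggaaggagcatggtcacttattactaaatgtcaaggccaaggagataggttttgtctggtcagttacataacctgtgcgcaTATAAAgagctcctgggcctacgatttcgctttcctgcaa
H4c8: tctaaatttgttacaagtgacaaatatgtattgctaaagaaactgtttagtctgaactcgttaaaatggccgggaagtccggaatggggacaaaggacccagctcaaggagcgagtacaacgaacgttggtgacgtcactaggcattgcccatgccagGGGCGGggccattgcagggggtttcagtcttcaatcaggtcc
The windows of Cyp2a5, Inmt and Miox hold a TATA box, Inmt with 2 copies, and that of H4c8 a GC box. That of Ugt2b37 holds none of the 4 motifs.

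Searched on both strands of the 300-base windows, with no correction for overlap between motifs, TATAAA stood in 11.1% of the genes that fell, 10.6% of those that rose, 7.98% of the genes tested and 14.2% of all promoters. The corresponding shares were 11.5%, 7.26%, 4.97% and 7.2% for GTTAAT, and 40.6%, 73.7%, 60.9% and 35.9% for GGGCGG. For CCAAT they were 34.4%, 38%, 38.5% and 37.9%, for AGAACA (core of a steroid receptor site) 16%, 10.6%, 13.3% and 19%, and for AGGTCA (core of a nuclear receptor site) 16.7%, 12.8%, 12.6% and 16%. The remaining motifs stood in 0% to 12.8% of the promoters of any of these gene groups. They were CAAAGTCCA, TGACGTCA, TTCNNNGAA, GAAANNGAA, CACGTG, TTGCGCAA and TTACGTAA. A match is a match of letters and does not show a bound factor.

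Genes of glucose and fructose metabolism that changed were higher. Of 27 genes of gluconeogenesis, glycolysis and fructose breakdown 7 rose and 0 fell (median 0.13, 0.25 without JQ1 replicate 1, against 0.005 over all genes). Among them were ketohexokinase Khk (0.47 ± 0.08) and triokinase Tkfc (0.57 ± 0.08), the first and last enzymes of fructose entry into glycolysis, xylulose reductase Dcxr (0.48 ± 0.08), enolase Eno1 (0.36 ± 0.09, call lost in 5 of 6, up to 0.164 without vehicle replicate 2), and 2 key enzymes of gluconeogenesis. Fbp1, fructose bisphosphatase, was at 599, 546 and 622 CPM after JQ1 and 346, 343 and 371 CPM in vehicle (0.74 ± 0.07, adjusted p = 8.23e-06). Pck1, which makes phosphoenolpyruvate, was at 953, 932 and 965 CPM against 523, 416 and 647 CPM (0.85 ± 0.13, adjusted p = 0.00314), and its vehicle libraries spread more than its JQ1 libraries. Of 15 sugar and inositol carriers 3 rose, namely Slc5a10, the glucose 6-phosphate carrier Slc37a4 (0.40 ± 0.08) and the fructose carrier Slc2a5 (0.81 ± 0.16, call lost in 3 of 6, up to 0.0762 without vehicle replicate 1), and 0 fell (median 0.17). Of 32 proximal tubule genes 9 rose and 3 fell (median 0.11). The summed level of these genes was 31444 to 33305 CPM after JQ1 and 31223 to 34671 CPM in vehicle, so that the groups overlapped. Rises among them included the phosphate and urate carrier Slc17a3 (0.47 ± 0.07), Cyp2e1 (0.60 ± 0.10) and the fatty acid carrier Slc27a2 (0.47 ± 0.08).

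Several enzymes that break down amino acids fell. Of 40 tested, 13 fell and 2 rose (median -0.14, -0.14 without JQ1 replicate 1). The share past the threshold was 37.5%, against 3.67% of all genes, not matched for abundance. With 1 library left out, 8 to 11 fell and 1 to 3 rose. Several of the enzymes that fell belong to the kynurenine route from tryptophan to NAD. Ido2, which opens the indole ring, was at 2.30, 2.01 and 1.88 CPM after JQ1 and 6.16, 5.06 and 5.76 CPM in vehicle (-1.46 ± 0.20, adjusted p = 0.000331). Kmo, the kynurenine hydroxylase, was at 27.1, 28.5 and 31.2 CPM against 41.4, 41.6 and 47.9 CPM (-0.59 ± 0.09, adjusted p = 0.000943), and Qprt, which closes the route to NAD, fell too (-0.52 ± 0.09). For these 3 genes both groups lay apart in each library, as for all 623 genes past the threshold and 20.7% of all genes tested. Kynu (-0.90 ± 0.24, call lost in 5 of 6, up to 0.245 without vehicle replicate 3) and Haao (-0.43 ± 0.11, call lost in 5 of 6, up to 0.173 without vehicle replicate 3) of the same route passed as lower, whereas Acmsd, at its branch point, had a log2 fold change of 0.06 and did not pass. The glycine cleavage system was split. Its T protein Amt fell (-0.70 ± 0.09, adjusted p = 0.000271), while its decarboxylase Gldc rose from 10.8, 8.55 and 11.7 CPM to 25.2, 18.8 and 21.5 CPM (1.06 ± 0.15, adjusted p = 0.000533). D-amino acid oxidase Dao fell (-0.54 ± 0.09), and Aldh7a1 of lysine breakdown rose (0.34 ± 0.07, call lost in 3 of 6, up to 0.0977 without vehicle replicate 2). Of 32 methionine, sulfur, creatine and polyamine enzymes 2 fell and 2 rose (median 0.05), a total that was 2 without JQ1 replicate 3. Csad, the taurine-forming decarboxylase, was at 148, 195 and 162 CPM against 321, 296 and 291 CPM (-0.84 ± 0.09, adjusted p = 2.53e-05), and the folate enzyme Aldh1l1 fell too (-0.45 ± 0.07).

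**Figure D4:**
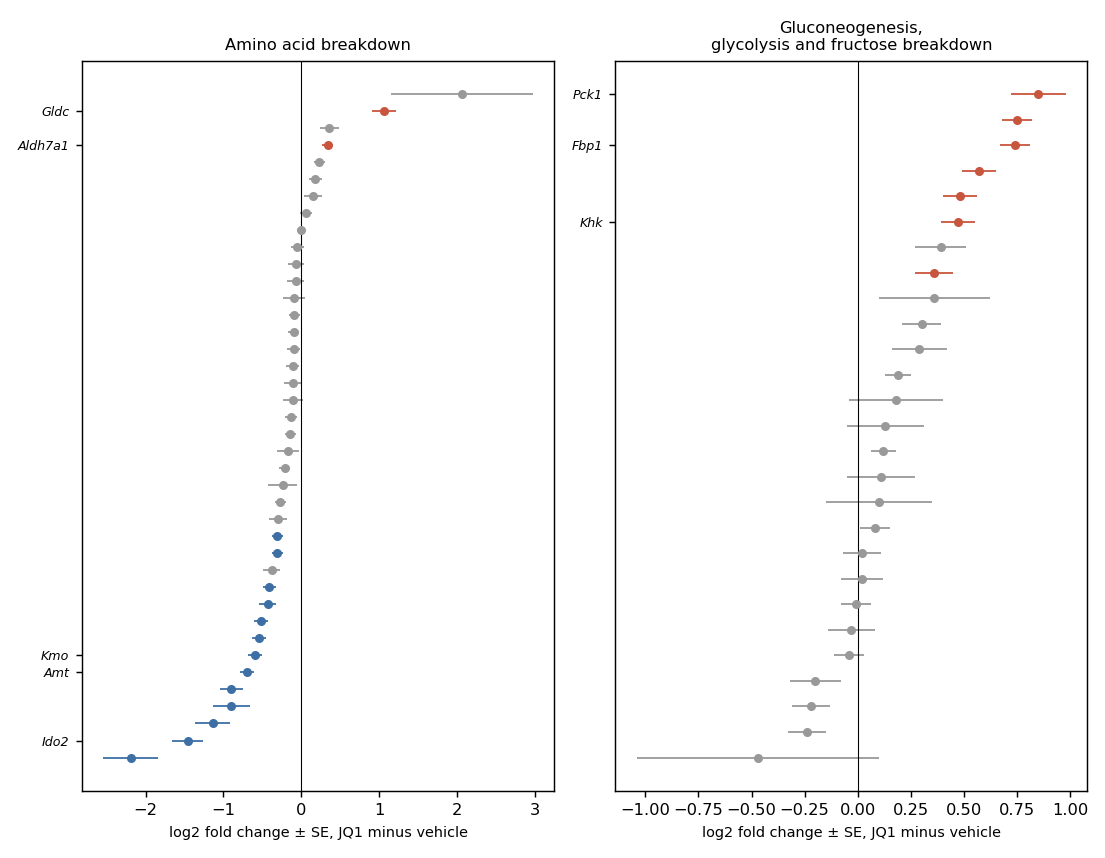
Points give the log2 fold change (JQ1 minus vehicle) of each tested gene of 2 metabolic lists and bars its standard error, coloured where the adjusted p was below 0.05 and grey elsewhere, with some of the genes named in the text labelled. In amino acid breakdown 13 of 40 genes are coloured as lower and 2 as higher, and in gluconeogenesis, glycolysis and fructose breakdown 7 of 27 as higher and 0 as lower.

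Enzymes of foreign compound and steroid metabolism were mostly lower where they changed. Of 12 glucuronidation genes 4 fell and 2 rose (median -0.39). Beside Ugt2b37 and Ugt2b5 the falls were in Ugt1a7c (-0.51 ± 0.07) and Ugt3a1 (-0.54 ± 0.09), and Ugp2, which makes UDP-glucose, rose (0.41 ± 0.08). Of 27 cytochromes P450 of families 1 to 4 5 fell and 2 rose (median -0.11), with falls in Cyp2d12 (-2.77 ± 0.35), Cyp2d26 (-1.26 ± 0.16) and the fatty acid hydroxylase Cyp4a12a (-0.57 ± 0.08). Of 43 genes of glutathione, sulfate and acyl conjugation or NRF2 response 3 fell and 2 rose (median -0.05), a total that was 2 without JQ1 replicate 3 and 8 without JQ1 replicate 2. Gstt1 was at 44.6, 53.3 and 48.5 CPM against 80.03, 85.6 and 82.3 CPM (-0.76 ± 0.08, adjusted p = 3.21e-05), and Sult1c2 fell as well (-0.57 ± 0.08). Of 24 steroid dehydrogenases and reductases 6 fell and 0 rose (median -0.21). Among them Hsd3b3 was at 9.60, 12.1 and 10.98 CPM against 20.3, 19.4 and 25.5 CPM (-0.99 ± 0.13), and Akr1c14 (-0.71 ± 0.14, call lost in 1 of 6, up to 0.0629 without vehicle replicate 3) and the oxysterol hydroxylase Cyp7b1 (-1.19 ± 0.19, call lost in 1 of 6, up to 0.0543 without JQ1 replicate 3) fell.

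**Figure D5:**
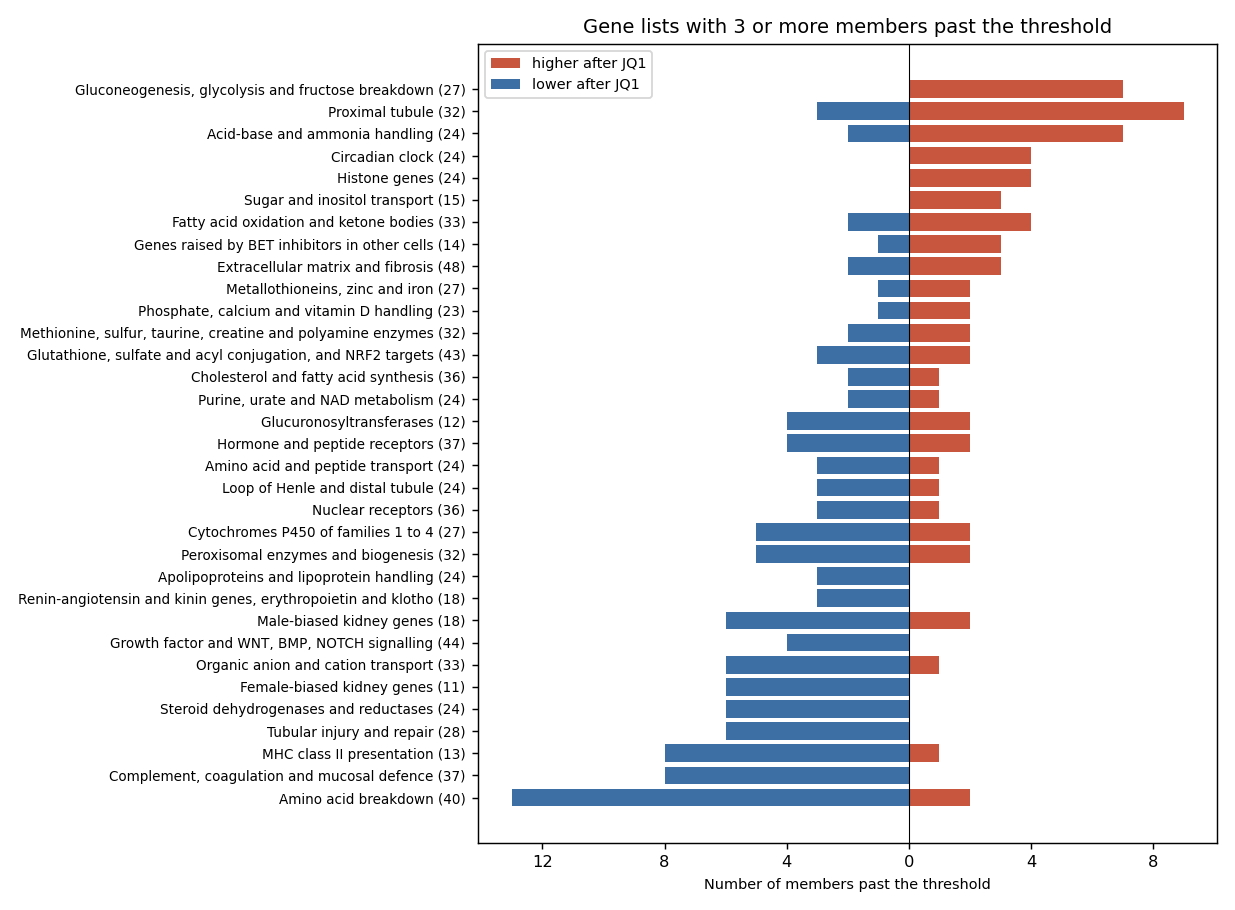
Bars give the number of members at an adjusted p below 0.05 that were higher (to the right) or lower (to the left) after JQ1, for the gene lists with 3 or more such members, with the number of members tested in parentheses. Amino acid breakdown has the most lower members (13) and the proximal tubule list the most higher members (9).

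Fat oxidation and peroxisome genes moved both ways. Of 33 fatty acid oxidation and ketone genes 4 rose and 2 fell (median 0.12), a total that was 2 without vehicle replicate 3 and 3 without vehicle replicate 2. The thioesterase Acot12 rose (0.44 ± 0.07), as did Angptl4, an inhibitor of lipoprotein lipase (0.89 ± 0.18, call lost in 2 of 6, up to 0.0658 without vehicle replicate 2). Of 32 peroxisomal genes 5 fell and 2 rose (median -0.04). Acox2, which oxidises branched fatty acids and bile acid precursors, was at 2.64, 6.002 and 4.99 CPM against 18.2, 14.8 and 21.7 CPM (-1.96 ± 0.23, adjusted p = 0.000485). Phyh, which starts the breakdown of phytanic acid (-0.51 ± 0.07), and the carnitine octanoyltransferase Crot (-0.52 ± 0.09) fell too. Of 36 cholesterol and fatty acid synthesis genes 2 fell and 1 rose (median -0.14), a total that was 1 without vehicle replicate 1 and 6 without JQ1 replicate 2, with Idi1 of the isoprenoid route at -0.85 ± 0.13. None of 32 nuclear genes of oxidative phosphorylation passed in edgeR, DESeq2 or limma voom (median 0.00, 4 at an unadjusted p below 0.05). Of 13 mitochondrially encoded genes 2 rose, mt-Atp8 (0.43 ± 0.08) and mt-Nd3 (0.30 ± 0.06, call lost in 3 of 6, up to 0.0933 without JQ1 replicate 3), a total that was 1 without JQ1 replicate 3 or vehicle replicates 1 or 2. Of 24 apolipoprotein and lipoprotein genes 3 fell and 0 rose, with Apob at -0.71 ± 0.13 and Apoh at -1.11 ± 0.21.

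Ion and solute carriers showed opposite changes within families. Of the sodium-phosphate carriers of the proximal tubule, Slc34a1 was at 3009, 3236 and 3209 CPM against 2236, 2222 and 2355 CPM (0.47 ± 0.07, adjusted p = 0.000532), whereas Slc34a3 was at 8.83, 8.84 and 9.75 CPM against 16.96, 21.9 and 20.2 CPM (-1.11 ± 0.13, adjusted p = 6.86e-05). Both carriers thus changed, in opposite directions. Pdzk1, a scaffold that binds such carriers, rose (0.37 ± 0.07, call lost in 2 of 6, up to 0.0668 without vehicle replicate 2). Of 24 acid-base and ammonia genes 7 rose and 2 fell (median 0.16), a total that was 3 without JQ1 replicate 3 or vehicle replicate 1 and 4 without vehicle replicate 2. The mitochondrial dicarboxylate carrier Slc25a10 rose (0.60 ± 0.08), the bicarbonate carrier Slc4a4 (0.33 ± 0.07, call lost in 3 of 6, up to 0.0727 without vehicle replicate 2) and glutamine synthetase Glul (0.35 ± 0.08, call lost in 3 of 6, up to 0.129 without JQ1 replicate 3) rose by less, and the membrane carbonic anhydrase Car4 fell (-0.76 ± 0.09). Of 33 organic ion carriers 6 fell and 1 rose (median -0.03), a total that was 4 without vehicle replicate 3 and 11 without JQ1 replicate 2. Slc22a18 (-0.60 ± 0.07), Slc22a22 (-0.52 ± 0.10) and Slc22a26 (-1.28 ± 0.22) fell, and the apical efflux pump Abcc2 was at 243, 269.8 and 244 CPM against 174, 164 and 186 CPM (0.53 ± 0.07). Of 24 amino acid and peptide carriers 3 fell and 1 rose, with the peptide carrier Slc15a2 at -0.58 ± 0.11 and the heavy chain Slc3a2 at 0.35 ± 0.07.

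Genes past the threshold made up 16.7% of the loop of Henle and distal tubule list and 14.3% of the podocyte list. Over all genes tested, not matched for abundance, the share was 3.67%. Of 24 genes of the loop of Henle and distal tubule 3 fell and 1 rose (median -0.01), a total that was 1 without JQ1 replicate 3 or vehicle replicate 1 and 2 without vehicle replicates 2 or 3. Parvalbumin (Pvalb), a calcium-binding protein of the distal convoluted tubule, was at 2.23, 3.73 and 4.93 CPM against 14.5, 14.8 and 15.4 CPM (-2.02 ± 0.19, adjusted p = 1.11e-05). Uromodulin (Umod), the main protein of normal urine, was at 280.4, 431 and 355 CPM against 622, 554 and 547 CPM (-0.69 ± 0.14, call lost in 4 of 6, up to 0.081 without JQ1 replicate 3). The other thick limb marker Slc12a1 was at 362, 694 and 503 CPM against 428, 381 and 423 CPM, with overlap. Of 14 podocyte genes 2 rose, among them Cdkn1c (0.63 ± 0.10), a total that was 4 without JQ1 replicate 1. None of 24 collecting duct genes (median 0.05) and none of 18 endothelial genes (median 0.04) passed in edgeR, DESeq2 or limma voom, with 3 and 2 at an unadjusted p below 0.05. With 1 library left out, edgeR called 1 collecting duct gene without JQ1 replicate 1 or 2 and 1 endothelial gene without JQ1 replicate 1.

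Receptors and sex-biased genes were among the losses. Of 37 hormone and peptide receptors 4 fell and 2 rose (median -0.06), a total that was 3 without JQ1 replicate 3 or vehicle replicate 3. Beside Cckar, the oestrogen receptor Esr1 was at 13.98, 11.6 and 9.46 CPM against 23.5, 17.7 and 27.1 CPM (-0.97 ± 0.16, adjusted p = 0.00191). The prolactin receptor Prlr was at 11.3, 6.90 and 8.52 CPM against 46.6, 48.2 and 63.2 CPM (-2.60 ± 0.37, call lost in 2 of 6, up to 0.0749 without JQ1 replicate 3) and the glucagon receptor Gcgr fell (-0.72 ± 0.16, call lost in 3 of 6, up to 0.0972 without vehicle replicate 3). Of 18 genes known to be higher in male kidney 6 fell and 2 rose (median -0.35), and of 11 genes known to be higher in female kidney 6 fell and 0 rose (median -1.23, 3 without JQ1 replicate 3). Falls in the first list included Timd2, Serpina1f, Cyp4a12a and Kap, and those in the second Tsku (-1.23 ± 0.13), Cyp2d12, Akr1c18 and Slc7a12 (-2.67 ± 0.45, call lost in 2 of 6, up to 0.0608 without JQ1 replicate 1). The androgen-driven Odc1 was at 678, 704 and 865 CPM against 829, 473 and 576 CPM, with overlap (0.26 ± 0.20, adjusted p = 0.595). Of 18 renin-angiotensin and kinin genes 3 fell and 0 rose, a total that was 0 without vehicle replicate 2 and 1 without JQ1 replicates 1 or 3 or vehicle replicate 3. They were angiotensinogen Agt, at 4.87, 7.53 and 2.76 CPM against 11.97, 14.3 and 14.4 CPM (-1.39 ± 0.27, call lost in 3 of 6, up to 0.0704 without JQ1 replicate 1), the converting enzyme Ace (-0.61 ± 0.13, call lost in 3 of 6, up to 0.073 without vehicle replicate 1) and the receptor Mas1 (-2.13 ± 0.56, call lost in 6 of 6, up to 0.151 without JQ1 replicate 3). Renin, Ren1, was at 85.97, 102 and 99.7 CPM against 67.2, 61.3 and 67.1 CPM and did not pass (0.56 ± 0.15, adjusted p = 0.085).

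MHC class II genes were mostly lower, and the median of the macrophage list turned on 1 library. Of 13 MHC class II genes 8 fell and 1 rose (median -1.54, -1.69 without JQ1 replicate 1), a total that was 5 without JQ1 replicates 1, 2 or 3 or vehicle replicate 1. The chaperone H2-DMb1 was at 1.95, 1.60 and 1.76 CPM against 6.22, 7.99 and 4.003 CPM (-1.78 ± 0.26, adjusted p = 0.000533), and the regulator Ciita at 2.57, 1.38 and 2.58 CPM against 7.11, 8.05 and 3.60 CPM (-1.54 ± 0.31, call lost in 1 of 6, up to 0.0503 without vehicle replicate 2). The invariant chain Cd74 was at 4.94, 5.14 and 4.52 CPM against 26.1, 35.6 and 14.4 CPM (-2.36 ± 0.33, call lost in 1 of 6, up to 0.0591 without JQ1 replicate 1), and the vehicle libraries differed among themselves in both genes. The 29 lymphocyte and immunoglobulin genes listed summed to 10.9 to 16.6 CPM after JQ1 and 21.1 to 38.3 in vehicle. Of the 12 tested, 1 was lower and 0 higher, a total that was 0 without JQ1 replicate 3 or vehicle replicates 1 or 2 and 3 without JQ1 replicate 2. The part of these genes in the class II result was not tested. The chemokine Ccl5, made largely by lymphocytes, fell (-2.47 ± 0.41). The median of 27 macrophage and dendritic cell genes was 0.21 with JQ1 replicate 1 and -0.37 without it. Of 37 complement, coagulation and mucosal defence genes 8 fell and 0 rose (median -0.05). Beside Cfb, protein C (Proc) was at 38.8, 47.9 and 40.3 CPM against 91.04, 79.2 and 76.6 CPM (-0.95 ± 0.10), coagulation factor F13b at -0.99 ± 0.12, the defensin Defb29 at -1.68 ± 0.17, and C8g fell from 8.07 ± 1.89 to 4.003 ± 0.536 CPM. Of 6 neutrophil and mast cell genes 2 rose, S100a8 at 4.45, 2.57 and 2.53 CPM against 0.547, 0.749 and 0.675 CPM and S100a9 at 6.68, 2.76 and 4.17 CPM against 1.78, 1.31 and 1.39 CPM, and both were highest in JQ1 replicate 1. The total for this list was 4 without JQ1 replicate 2.

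No gene of the tubular injury list passed as higher over the 6 libraries, and 1 did without JQ1 replicate 2, Timp1, named after its values were seen (1.98 ± 1.12 with all libraries). Of 28 tested, 6 fell and 0 rose (median 0.07), a total that was 3 without vehicle replicate 1. The keratin Krt8 was at 24.2, 27.9 and 22.7 CPM against 38.6, 37.3 and 36.4 CPM (-0.58 ± 0.09), and Dcdc2a (-0.90 ± 0.14), the cytokine Il34 (-0.99 ± 0.19) and the progenitor factor Sox9 (-1.58 ± 0.35, call lost in 3 of 6, up to 0.0886 without vehicle replicate 2) fell. The injury markers Havcr1 (KIM-1) at 1.18, 1.83 and 1.35 CPM against 0.821, 4.74 and 1.57 CPM (-0.68 ± 0.49, adjusted p = 0.553) and Lcn2 (NGAL) at 3.69, 0.597 and 0.705 CPM against 0.821, 4.24 and 0.720 CPM (-0.25 ± 0.94, adjusted p = 0.938) overlapped between groups and were at low levels. Of 27 p53 targets and cell cycle inhibitors 1 rose and 1 fell, a total that was 1 without JQ1 replicate 3 or vehicle replicates 1 or 3. Of 40 cell cycle genes 1 fell, cyclin D1 (-0.36 ± 0.07, call lost in 1 of 6, up to 0.0579 without JQ1 replicate 3), and 0 rose. None of 32 genes of the unfolded protein and integrated stress responses passed in edgeR, DESeq2 or limma voom (median 0.07, 6 at an unadjusted p below 0.05). Of 48 matrix genes 3 rose and 2 fell, a total that was 2 without vehicle replicate 3, 3 without JQ1 replicate 3 or vehicle replicate 1 and 9 without JQ1 replicate 2. Their median was 0.36, and 0.09 without JQ1 replicate 1, the library high in fibroblast genes. The collagen-modifying Plod2 rose (0.60 ± 0.09) and the matrix growth factor Ccn2 fell (-0.75 ± 0.11). Of 44 growth factor and morphogen genes 4 fell, among them Fgf9 (-0.65 ± 0.10), and 0 rose, a total that was 2 without JQ1 replicates 1 or 3 or vehicle replicates 2 or 3.

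Genes of BET proteins and of transcription elongation did not pass the threshold. Brd2 was at 179, 179 and 185 CPM against 216, 209.8 and 194 CPM (-0.19 ± 0.07, adjusted p = 0.155) and Brd3 at -0.07 ± 0.07 (adjusted p = 0.669). Brdt reads were few, at 2.36, 1.90 and 1.06 CPM against 1.30, 2.12 and 1.44 CPM (0.13 ± 0.36, adjusted p = 0.913). Hexim1, which responds to BET inhibitors in many cells, was at 111, 81.3 and 99.6 CPM against 96.8, 98.3 and 91.4 CPM (0.03 ± 0.09, adjusted p = 0.938), and Cdk9 had a log2 fold change of -0.15 ± 0.09. Myc was at 3.13, 2.35 and 2.23 CPM against 1.09, 1.81 and 1.30 CPM and did not pass (0.86 ± 0.38, adjusted p = 0.265). None of 34 BET and elongation genes (median -0.02), 31 MYC family and immediate early genes (median -0.09) and 41 kidney transcription factor genes (median -0.01) passed in edgeR, DESeq2 or limma voom, with 4, 4 and 4 at an unadjusted p below 0.05. With 1 library left out, edgeR called 1 BET and elongation gene without JQ1 replicate 2, 1 MYC family or immediate early gene without JQ1 replicate 3, and 1 and 2 transcription factor genes without JQ1 replicates 1 and 2. Among the last, Hnf4a was at 0.03 ± 0.07. Of 24 histone genes 4 rose and 0 fell (median 0.24), a total that was 2 without vehicle replicate 2. Transcripts of replication-dependent histones as a rule lack a poly(A) tail, and these libraries were made from polyadenylated RNA. A list of 16 other RNAs without a tail summed to 89523 to 121164 CPM after JQ1 and 87293 to 99739 CPM in vehicle, with overlap. Only 8 of them were tested, 7 with a log2 fold change above 0 and 1 below 0 (median 0.37), and 0 passed. The part of this list in the histone rises was not tested. Of 36 nuclear receptor genes 3 fell and 1 rose, a total that was 1 without vehicle replicates 1 or 3 and 2 without JQ1 replicates 1 or 3. Ppara was at 0.28 ± 0.09 (adjusted p = 0.106), Nr1h4 at 0.31 ± 0.17 (adjusted p = 0.419) and Nr1i2 at -0.58 ± 0.37 (adjusted p = 0.485).

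Few of these changes passed a test of the difference from liver. A change that did not pass is not thereby shown to be shared by the liver. Over the 18 libraries of both organs, 17 of 17454 genes (0.0974%) had an adjusted p below 0.05 for the difference in log2 fold change, 14 more negative and 3 more positive in kidney, and 1259 an unadjusted p below 0.05. Of the 24 genes with the largest kidney changes 3 were among them. Cyp2a5 changed by -4.61 ± 0.26 in kidney and -0.58 ± 0.40 in liver, Ugt2b5 by -3.63 ± 0.56 and 0.35 ± 0.16, and Hsd17b2 by -3.01 ± 0.30 and 0.02 ± 0.28. The difference for Cyp2a5 passed in each of the 6 fits without 1 kidney library, that for Ugt2b5 was lost in 1 and that for Hsd17b2 in 5. Chosen after their values were seen, Inmt (difference -1.36 ± 0.16, adjusted p = 0.000765), Csad (-1.42 ± 0.17), Ido2 (-1.30 ± 0.21, lost in 3 of 6) and Gldc (1.26 ± 0.22, lost in 4 of 6) also differed. The number of genes called different was 8 without kidney JQ1 replicate 1, 10 without kidney JQ1 replicate 3 or vehicle replicate 1, and 103 with DESeq2. In liver alone 34 of 14467 genes passed, which does not by itself show a smaller response, since depth and spread differ between the organs.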

How the data were processed

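Total RNA of kidney and liver was made into poly(A)-selected libraries and sequenced on one end. According to the methods of the study and the processing notes, the authors trimmed reads with fastp 0.20.1 and quantified transcripts with Salmon 1.10.0 against a mouse GENCODE transcriptome (mm10). The deposited values are estimated counts and TPM per transcript for each library, with no pooling of replicates. Which strand setting was used is not given in the sources used here, so that overlapping antisense genes cannot be told apart.

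Estimated counts of 147833 transcripts were summed per gene symbol and rounded. Genes passing filterByExpr (minimum count 10, minimum total 15) were tested with the edgeR 4.0.16 quasi-likelihood F-test (limma 3.58.1, R 4.3.3) with TMM factors on 9 kidney libraries in 3 groups, the JQ1 recovery group adding only to the estimate of the spread. The test was two-sided, ± after a log2 fold change is its standard error, and Benjamini-Hochberg adjustment covered all genes tested. The difference between organs was fitted in the same way on 18 libraries. The script was tested on simulated data. Alternatives were DESeq2 1.42.0, limma voom, RLE factors, 2 other filters, other sets of libraries, counts per identifier, a replicate block, each library left out, and length-scaled counts made from the deposited TPM. Total reads ranged from 13952510 to 26895318, and p-values measure the spread between libraries, each labelled as a separate replicate.

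Genes were named by rule: the 12 largest rises and falls without overlap and with 2 CPM or more, the 10 largest gains and losses in CPM, the 10 lowest adjusted p in each direction, up to 5 called members of each of 66 gene lists, and regulators chosen by name. A few genes that the rule names are not reported here. The members and lists were chosen with earlier results of these data known. Promoter sequences are from RefSeq (GRCm38.p6).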

Additional observations from a re-analysis of the deposited data

Results flagged for a closer look

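Over the 18 libraries of both organs, 17 genes are listed here because the difference between the JQ1 effect in kidney and that in liver was itself tested and had an adjusted p below 0.05 in edgeR. Values are kidney minus liver differences in log2 fold change. Of the 17, 6 passed in each of the 6 fits that left out 1 kidney library, namely Cyp2a5 (-4.02), Timd2 (-2.09), Gm15638 (-1.96), Csad (-1.42), Inmt (-1.36) and Cyp2j6 (-1.25). Ugt2b5 (-3.99), Dio1 (-1.60) and Ddc (-1.32) lost the call in 1 of these fits. Ido2 (-1.30) and Mt1 (1.72) lost it in 3, Slc35f1 (-8.62), Rtp3 (-2.14), Tsku (-1.61), Gldc (1.26) and Cyp2e1 (1.26) in 4, and Hsd17b2 (-3.03) in 5. The kidney change itself passed in all of them but Cyp2j6 and Mt1, which had log2 fold changes of -0.21 and -0.06 in kidney and of 1.05 and -1.78 in liver. Dio1 passed as lower in both organs, at -2.42 in kidney and -0.82 in liver. Slc35f1 was at 0 in each vehicle liver library, so that its fitted difference depends on the prior count and gives no size. With 3 libraries in a group, no single library was tested for lying outside its group.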

How the results depend on the processing

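The count of 623 genes was 1095 with no filter on low counts (441 higher, 654 lower), 395 in a model of the 6 libraries alone (131 higher) and 381 on length-scaled TPM counts (121 higher). Leaving out single libraries gave 384 to 743 genes, 105 to 281 higher and 266 to 462 lower. DESeq2 (848), limma voom (514), RLE factors (613), a minimum of 1 CPM (622), the 4 vehicle kidneys of both times as controls (709) and counts per identifier (622) stayed within 1.5 times. The difference between organs, with 17 genes, was called for 103 genes by DESeq2, 29 with no filter and 8 to 24 without single kidney libraries. The causes were not tested. Of 148 named genes that passed, 104 passed whichever library was left out, and 19 lost the call in the model of 6 libraries, 18 on length-scaled counts, 12 with voom and 0 with DESeq2. None changed sign in any alternative.

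The labels give replicates of both groups the same numbers. Same-numbered libraries did not deviate together (correlations -0.069, -0.13 and 0.0235 for numbers 1 to 3), so that the number was taken as a name only. With it as a block, 510 genes passed (174 higher, 336 lower, 480 of them among the 623), and 10 for the difference between organs.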

Other observations

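Of 24 circadian clock genes 4 rose and 0 fell (median 0.06), a total that was 2 without vehicle replicate 3. Bhlhe40, a repressor of the clock loop, was at 44.4, 33.9 and 37.6 CPM after JQ1 and 22.6, 26.3 and 22.1 CPM in vehicle (0.70 ± 0.11), and Cry2, another repressor, was at 12.03, 12.5 and 10.7 CPM against 6.22, 6.62 and 6.93 CPM (0.84 ± 0.15). For Hlf the value was 0.33 ± 0.08 (call lost in 3 of 6, up to 0.126 without vehicle replicate 3). The hour of tissue collection is not given in the sources used here. Of 27 metallothionein, zinc and iron genes 2 rose and 1 fell (median 0.11), a total that was 1 without vehicle replicate 3 and 5 without JQ1 replicate 2. The zinc and manganese carrier Slc39a8 was at 13.9, 16.1 and 15.5 CPM against 34.2, 24.7 and 28.1 CPM (-0.93 ± 0.14), and ferritin light chain Ftl1 was at 0.42 ± 0.09 (call lost in 1 of 6, up to 0.0704 without vehicle replicate 3). Car9, a carbonic anhydrase and the 1 member called of 24 hypoxia genes (2 without JQ1 replicate 2), was at 0.556, 1.30 and 1.17 CPM against 5.13, 4.24 and 6.03 CPM (-2.29 ± 0.31). Chosen after their values were seen, the thyroid hormone deiodinase Dio1 was at 1.53, 1.79 and 1.82 CPM against 7.18, 7.93 and 12.5 CPM (-2.42 ± 0.23) and the dopamine-forming decarboxylase Ddc at 26.9, 32.4 and 31.6 CPM against 68.9, 58.8 and 85.9 CPM (-1.23 ± 0.12).

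Further lists had small numbers of members past the threshold. Their shares ran from 2.04% (chromatin modifiers) to 28.6% (genes raised by BET inhibitors in other cells), against 3.67% of all genes tested. The lists and all genes were not matched for abundance here either. Of 30 sodium, chloride, potassium and water transport genes 2 rose (median 0.10), a total that was 1 without JQ1 replicate 3 or vehicle replicate 2, and of 23 phosphate, calcium and vitamin D genes 2 rose and 1 fell. Of 24 purine, urate and NAD genes 1 rose and 2 fell, a total that was 1 without vehicle replicates 1 or 3. Of 37 lysosome and autophagy genes 2 rose, a total that was 1 without JQ1 replicate 3 or vehicle replicate 1 and 7 without JQ1 replicate 2. Of 31 chemokine, cytokine and NF-kB genes 2 fell, a total that was 4 without JQ1 replicate 2 and 5 without vehicle replicate 3. Of 14 genes known to be raised by BET inhibitors in other cells 3 rose, all of them histone genes, and 1 fell, Cdkn1a (-0.51 ± 0.12, call lost in 3 of 6, up to 0.129 without vehicle replicate 1), a total that was 2 without vehicle replicate 3. Of 18 genes known to be lowered by such inhibitors 1 fell, Ccnd1, a total that was 0 without JQ1 replicate 3. Of 27 retinoid genes 2 passed in edgeR, a total that was 0 without vehicle replicate 1 and 1 without JQ1 replicates 1 or 3 or vehicle replicate 2, and 0 passed with voom. Of 48 ribosomal protein genes 2 passed, a total that was 0 without JQ1 replicates 1 or 3 or vehicle replicates 2 or 3 and 1 without JQ1 replicate 2 or vehicle replicate 1. The lists of MHC class I (19 genes), interferon response (32), heat shock (21), chromatin modifiers (49) and cilium (35) had 1 member past the threshold each. These totals were 0 without JQ1 replicate 3 or vehicle replicate 2 and 2 without vehicle replicate 3 for MHC class I, 2 without JQ1 replicate 2 for interferon response and 0 without JQ1 replicates 1 or 3 or vehicle replicates 2 or 3 for heat shock. They were 0 without JQ1 replicate 3 or vehicle replicates 1 or 2 and 2 without JQ1 replicate 2 for chromatin modifiers and 0 without JQ1 replicates 1 or 2 or vehicle replicates 1 or 3 for cilium. Epo had no read in the 6 libraries, and Nr1i3 was at 0 to 0.117 CPM and not tested.

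Genes that fell were more often genes with a higher CPM in vehicle liver than in vehicle kidney, which held for 101 of the 386 (26.2%), for 47 of the 237 that rose (19.8%) and for 2897 of the 16973 tested (17.1%). These shares are a description, and abundance also differed between the gene groups. Among tested genes ordered along chromosomes by RefSeq, with 368 of the falls and 226 of the rises matched, 22 pairs of direct neighbours both fell and 8 pairs both rose. Over the 6 libraries the falls included the class II runs H2-Ab1, H2-Aa and H2-Eb1 and H2-DMa, H2-DMb2 and H2-DMb1, and the family pairs Cyp2a4 and Cyp2a5, Cyp2d12 and Cyp2d26, Ugt2b5 and Ugt2b37, and Akr1c14 and Akr1c18. With single libraries left out, H2-Ab1, H2-Aa, H2-Eb1 and H2-DMa lost the call in 4 of 6 fits, and H2-DMb2, Cyp2a4 and Akr1c14 in 1. The rises included S100a8 and S100a9, which kept the call. They also included Col4a1 and Col4a2, which lost it in 3 and 6 of 6 fits, and Slc2a5 and Eno1, which lost it in 3 and 5. Members of such families share sequence, and no test was made of these counts.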
